A study of Mus musculus with 9 samples.

Results

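The comparison described here sets all 6 libraries from mice under sevoflurane, an inhaled anesthetic, against the 3 libraries from awake control mice, and asks which transcripts moved with anesthesia at both doses given. Each dose group has the same weight in the pooled difference, so the 9 libraries of the series all enter, 3 per group. The mice were male wild-type C57BL/6J, an inbred laboratory strain, aged 8 to 15 weeks. Dose is given in MAC, the minimum alveolar concentration, in which inhaled anesthetics are compared. For 120 min the CTRL mice stayed awake and moved about with no sevoflurane, the 0.7 MAC mice breathed 0.7 MAC for 120 min, and the 2.0 MAC mice breathed 2.0 MAC for 30 min and then 0.7 MAC for 90 min. Both sevoflurane groups therefore ended on the same dose. Sevoflurane was given in 100% O2, and the gas of the CTRL mice is not stated. The study's methods describe tracheal intubation and a heating pad for mice under sevoflurane, and name neither for the CTRL mice. Sevoflurane therefore cannot be told apart in this comparison from added oxygen, loss of movement, intubation or warming. All mice were euthanized under anesthesia and perfused with phosphate-buffered saline, the CTRL mice included. The tissue was what remained after the cortex, cerebellum and olfactory bulb had been removed, and the sample labels call it hypothalamus. Other label text names whole brain and neurospheres, and whether each library came from its own mouse is not stated, so p-values measure the spread between libraries.

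Volatile anesthetics act on GABA-A and glycine receptors, tandem-pore potassium channels and proteins of vesicle release, and they lower neuronal firing in much of the brain. Genes such as Arc, Npas4 and Egr1 are switched on within minutes by neuronal firing and are read as markers of recent activity. Endothelial cells carry their own rapid genes, among them Klf2 and Klf4, which respond to blood flow, and the adrenal stress hormones induce a further set through the glucocorticoid receptor. Cells short of sterols raise the genes of cholesterol synthesis.

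The values are exon-based reads per gene as deposited, 5321491 to 7178568 per library (median 6382725). Levels are CPM, counts scaled to library size after TMM normalization, and differences are log2 fold changes from edgeR's quasi-likelihood test on 14140 genes, with adjusted p over all of them. A gene is said to rise or fall where its adjusted p was under 0.05. Where libraries are listed, they stand in the order of replicates 1, 2 and 3 of each group.

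The libraries differed in their regional make-up, and this moved with the groups. Of 20 striatum markers 17 fell in the pooled comparison, with a median log2 fold change of -0.71 (-0.24 at 0.7 MAC and -1.12 at 2.0 MAC). Their summed level was 2496 to 2979 CPM in the CTRL libraries, 1910 to 2980 CPM at 0.7 MAC and 1285 to 1410 CPM at 2.0 MAC, so the 2.0 MAC libraries lay below all others. Markers of the cerebral cortex and hippocampus summed to 1314 to 1849, 1726 to 2034 and 988.5 to 1117 CPM in the same order, and 3 of 18 fell. Cerebellum genes summed to 233.4 to 253.7 CPM in the CTRL libraries, and reached 663, 1303 and 227.2 CPM in the 0.7 MAC libraries and 315.9, 295 and 716 CPM in the 2.0 MAC libraries. Of the 11 tested, 2 rose, Cbln3 at 4.27 (adjusted p = 0.0415) and Fat2 at 3.16 (adjusted p = 0.0427), and both calls were lost in 6 of the 9 fits that left out 1 library, among them all 3 without a CTRL library. Hemoglobin genes of erythrocytes, 3 of 6 tested, summed to 2.68 to 6.88 CPM in the CTRL libraries, 4.596 to 33.01 CPM at 0.7 MAC and 4.45 to 20.7 CPM at 2.0 MAC, and none passed the test in edgeR (3 had an unadjusted p under 0.05). Hypothalamus genes, 14 of 21 tested, summed to 94.45 to 118.1 CPM in the CTRL libraries, 92.61 to 101.8 CPM at 0.7 MAC and 134.9 to 144.6 CPM at 2.0 MAC, and hindbrain genes to 243.3 to 331.7, 214.1 to 230.2 and 371.9 to 418.8 CPM. For both lists the 2.0 MAC libraries lay above all others. In bulk tissue, fewer cells of a type and less RNA per cell cannot be told apart.

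**Figure D1:**
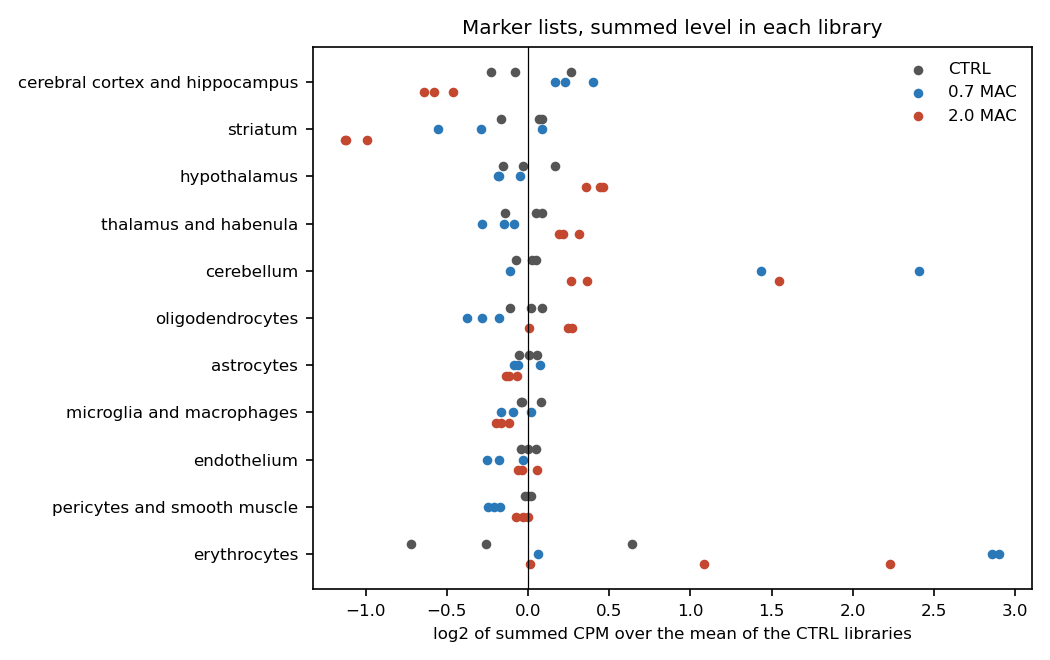
Summed level of the genes of 11 marker lists in each library, on the horizontal axis as log2 of the summed CPM over the mean of the 3 CTRL libraries, with points colored by group. The 2.0 MAC libraries lie below all others for striatum genes, and 3 sevoflurane libraries lie far to the right for cerebellum genes.

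Across all genes, 154 (1.09% of those tested) rose and 252 (1.78%) fell under sevoflurane. At a change of at least 2-fold as well, 35 (0.248%) rose and 30 (0.212%) fell. With limma on log2(RPKM + 0.1), 116 rose and 79 fell, a larger share of rises, while leaving out only the TMM scaling in edgeR gave 166 and 238. The pooled test can call a gene on the strength of 1 dose, and 53 of the called genes had opposite signs in the doses. A gene was therefore counted as common where it was called, moved in the same direction at both doses, and had all 6 sevoflurane libraries on the same side of all 3 CTRL libraries. This left 129 common genes higher (0.912%) and 84 lower (0.594%), and the description below rests mainly on these 213. Their separation is part of the rule and is no further evidence. Against CTRL alone, the 0.7 MAC group had 125 genes higher (0.884%) and 105 lower (0.743%), and the 2.0 MAC group had 475 higher (3.36%) and 908 lower (6.42%). The comparisons share the CTRL libraries. Of the 129 common genes higher, 49 were called at each dose by itself, 13 only at 0.7 MAC, 62 only at 2.0 MAC and 5 at neither. For the 84 lower the numbers were 32, 11, 36 and 5.

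These counts depend on which libraries and covariates enter. They ran from 63 to 282 common genes higher and from 35 to 276 lower when each library was left out in turn, the most without 0.7 MAC replicate 3 (282 and 276) and the fewest without CTRL replicate 1 (63 and 35). Without CTRL replicate 3 there were 64 and 47. The 154 genes higher became 64 without CTRL replicate 1, 65 without CTRL replicate 3, 91 without 0.7 MAC replicate 1, 96 without either CTRL replicate 2 or 2.0 MAC replicate 3, and 370 without 0.7 MAC replicate 3. The 252 lower became 70 without CTRL replicate 1, 98 without CTRL replicate 3 and 541 without 0.7 MAC replicate 3, and 138 to 169 without 0.7 MAC replicate 1 or any single 2.0 MAC library. With the mean of 38 cortex and striatum genes as a covariate, 17 common genes higher and 3 lower were left, and that covariate was itself lowest in the 2.0 MAC libraries. Without the 3 libraries highest in cerebellum genes, an alternative chosen after seeing the data, 71 and 38 were found.

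**Figure D2:**
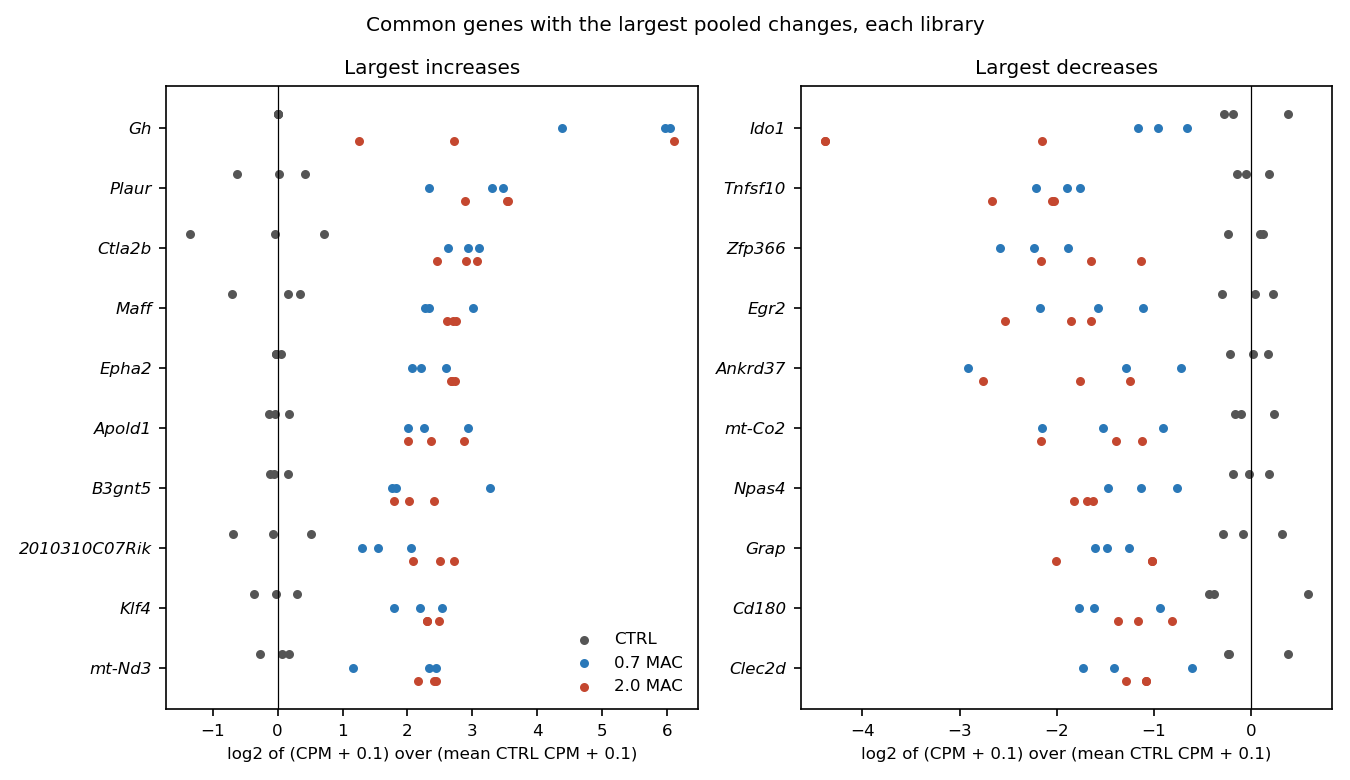
The 10 common genes with the largest increases (left) and the 10 with the largest decreases (right), in each library, as log2 of CPM + 0.1 over the mean CTRL CPM + 0.1 on the horizontal axis. The genes were chosen by pooled log2 fold change among the common genes, whose rule asks that the groups lie apart. That change is largest for Gh and Plaur on the left and for Ido1 and Tnfsf10 on the right. The gap between libraries is narrow for Gh, with 0 reads in each CTRL library and 1 in 2.0 MAC replicate 3.

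Of 22 tested genes of the endothelial early response, 7 rose and 1 fell (Tie1), and all 8 were common. Their median log2 fold change was 0.30, against -0.0067 over all genes. Klf4, a transcription factor of endothelium and other cells (chromosome 4, 55527143 to 55532466), was at 7.54, 5.98 and 4.72 CPM in the CTRL libraries, 21.3, 28.04 and 35.5 CPM at 0.7 MAC and 34.7, 30.3 and 30.5 CPM at 2.0 MAC. The lowest sevoflurane library was well above the highest CTRL library. Its log2 fold change was 2.30 (SE 0.18, adjusted p = 3.92e-06), with 2.22 at 0.7 MAC and 2.39 at 2.0 MAC. Klf2, its close relative, was at 7.37, 9.92 and 7.67 CPM in the CTRL libraries, 18.4, 19.7 and 25.9 CPM at 0.7 MAC and 28.8, 20.5 and 21.1 CPM at 2.0 MAC, a log2 change of 1.42 (SE 0.16, adjusted p = 0.000131). Apold1, an endothelial protein of early response to ischemia and flow (chromosome 6, 134981718 to 134986836), was at 7.70, 6.61 and 6.20 CPM in the CTRL libraries, 27.7, 32.9 and 52.7 CPM at 0.7 MAC and 50.6, 27.9 and 35.8 CPM at 2.0 MAC. Its spread was wide under sevoflurane, and its log2 fold change was 2.47 (SE 0.24, adjusted p = 3.37e-05). Cyr61, a secreted matricellular protein also named Ccn1 (chromosome 3, 145646976 to 145649981), was at 4.59, 5.98 and 3.69 CPM in the CTRL libraries, 18.7, 18.6 and 17.5 CPM at 0.7 MAC and 25.8, 29.4 and 15.9 CPM at 2.0 MAC, a change of 2.12 (SE 0.21, adjusted p = 2.99e-05).

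The fibrinolytic and anticoagulant genes of the same list rose as well. Plaur, the receptor of urokinase (chromosome 7, 24462484 to 24475968), was at 0.164, 0.315 and 0.443 CPM in the CTRL libraries, 1.95, 3.91 and 4.44 CPM at 0.7 MAC and 4.64, 2.91 and 4.69 CPM at 2.0 MAC. It was barely detected in the CTRL libraries, and its log2 fold change of 3.50 (SE 0.46, adjusted p = 0.000413) was the largest among the called genes of the list. Plat, the tissue plasminogen activator, was at 34.9 ± 3.25 CPM in the CTRL group, 48.5 ± 3.05 CPM at 0.7 MAC and 50.96 ± 4.03 CPM at 2.0 MAC (n = 3 per group, SD), a log2 change of 0.51 (SE 0.081, adjusted p = 0.00192). Thbd, thrombomodulin, which turns thrombin to an anticoagulant role on the vessel wall, was at 19.7, 15.7 and 16.97 CPM in the CTRL libraries, 30.2, 26.7 and 32.5 CPM at 0.7 MAC and 27.6, 31.8 and 34.4 CPM at 2.0 MAC and changed by 0.81 (SE 0.10, adjusted p = 0.000302). The list kept 7 or 8 genes higher whichever single library was left out, 7 without the 3 libraries highest in cerebellum genes, and 6 with cortex and striatum genes as covariate. Members that did not pass the test were Icam1 at 0.84 (adjusted p = 0.0567), Sox7 at 1.03 (adjusted p = 0.074) and Edn1 at 0.94 (adjusted p = 0.136), and Ctgf, the close relative of Cyr61, was at 0.23 (adjusted p = 0.534).

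Promoter sequence is shown for 5 of the common genes, chosen after their values were seen, as examples of vascular and immediate early genes that moved together or apart. Each is the 250 bases before the RefSeq start on GRCm38.p6, and capitals mark the cAMP response element TGACGTCA, its short form CGTCA (contained in the full element) and the AP-1 site TGANTCA, searched on both strands.
Epha2 (chr4:141300971-141301220, plus strand): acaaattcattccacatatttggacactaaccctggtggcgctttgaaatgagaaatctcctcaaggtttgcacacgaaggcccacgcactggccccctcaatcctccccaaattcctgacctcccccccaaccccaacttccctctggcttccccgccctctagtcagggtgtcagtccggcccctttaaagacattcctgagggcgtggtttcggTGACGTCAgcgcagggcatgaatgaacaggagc
Plaur (chr7:24462233-24462482, plus strand): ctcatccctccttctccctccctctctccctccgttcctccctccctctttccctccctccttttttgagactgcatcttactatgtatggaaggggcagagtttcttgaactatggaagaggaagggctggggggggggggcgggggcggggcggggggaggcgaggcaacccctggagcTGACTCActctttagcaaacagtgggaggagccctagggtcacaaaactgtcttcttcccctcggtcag
Cyr61 (chr3:145649986-145650235, minus strand): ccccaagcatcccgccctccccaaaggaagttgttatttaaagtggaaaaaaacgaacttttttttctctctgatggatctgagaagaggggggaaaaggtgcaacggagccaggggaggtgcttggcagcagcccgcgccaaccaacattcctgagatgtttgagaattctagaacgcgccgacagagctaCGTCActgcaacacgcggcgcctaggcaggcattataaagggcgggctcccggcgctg
Dusp1 (chr17:26508473-26508722, minus strand): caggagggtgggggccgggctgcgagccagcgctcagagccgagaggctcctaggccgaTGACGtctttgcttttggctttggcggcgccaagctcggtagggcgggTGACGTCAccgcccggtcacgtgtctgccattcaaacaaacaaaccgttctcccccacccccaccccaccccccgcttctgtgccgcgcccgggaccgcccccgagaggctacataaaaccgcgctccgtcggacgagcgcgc
Npas4 (chr19:4989972-4990221, minus strand): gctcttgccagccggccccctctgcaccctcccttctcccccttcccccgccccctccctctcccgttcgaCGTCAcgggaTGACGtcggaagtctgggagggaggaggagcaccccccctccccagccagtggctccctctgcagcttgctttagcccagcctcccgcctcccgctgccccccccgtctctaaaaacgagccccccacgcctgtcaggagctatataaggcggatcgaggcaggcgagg
The full element began 33 bases before the start of Epha2 and 143 bases before that of Dusp1, and the AP-1 site 69 bases before that of Plaur. Cyr61 had the short form at 58 bases, and Npas4, which fell, had it at 179 and 169 bases. Of the tested genes, 11137 matched a promoter, among them 101 of the 129 common genes higher and 55 of the 84 lower. The short form was present in 39.6% of the common higher promoters, in 11 of the 55 common lower promoters and in 26.7% of all tested promoters, and the full element in 3.96%, 3.64% and 2.84%. The AP-1 site was present in 7.92%, 5.45% and 4.09%. Also searched were the sterol regulatory element TCACNCCAC and the CArG box, a run of A or T between CC and GG. The sterol element was present in 0.99%, 0% and 0.925%, and in 0 of 6 promoters of common higher genes of cholesterol and fatty acid synthesis. The CArG box was present in 2.97%, 3.64% and 1.1%. These are matches of letters, not binding sites, and base composition was not tested.

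Genes for matrix proteases and a basement membrane collagen rose. Adamts1, a secreted metalloprotease that cleaves proteoglycans (chromosome 16, 85793827 to 85803113), was at 24.4, 25.8 and 24.6 CPM in the CTRL libraries, 54.2, 58.04 and 66.6 CPM at 0.7 MAC and 62.3, 60.5 and 68.5 CPM at 2.0 MAC. The CTRL libraries lay close together. It had the smallest adjusted p of the named genes, with a log2 change of 1.31 (SE 0.084, adjusted p = 6.2e-07). Adamts9, a related protease, was at 13.8, 12.6 and 10.6 CPM in the CTRL libraries, 28.97, 27.7 and 39.8 CPM at 0.7 MAC and 35.98, 35.02 and 39.2 CPM at 2.0 MAC, a change of 1.48 (SE 0.13, adjusted p = 1.17e-05). Col4a1, a chain of basement membrane collagen, was at 42.1 ± 4.53 CPM in the CTRL group, 51.6 ± 1.48 CPM at 0.7 MAC and 56.6 ± 6.59 CPM at 2.0 MAC (n = 3 per group, SD) and changed by 0.36 (SE 0.084, adjusted p = 0.0308), a call lost without CTRL replicate 2 or 3 or 0.7 MAC replicate 1 or 2.0 MAC replicate 2 (adjusted p up to 0.128). These were the 3 genes that rose of 19 tested in the list of vascular proteases and matricellular genes, and none fell (0 also at an unadjusted p under 0.05 and 0 in DESeq2). Thbs1, Timp3 and Mmp14 did not pass, at 0.44 (adjusted p = 0.256), 0.22 (adjusted p = 0.328) and 0.35 (adjusted p = 0.252).

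Among the other large increases, Epha2, a receptor tyrosine kinase for ephrin-A ligands (chromosome 4, 141301240 to 141329384), was at 1.47, 1.57 and 1.48 CPM in the CTRL libraries, 6.69, 7.34 and 9.65 CPM at 0.7 MAC and 10.2, 10.7 and 10.2 CPM at 2.0 MAC. The CTRL libraries were nearly equal, and the log2 fold change was 2.57 (SE 0.21, adjusted p = 7.08e-06). Ctla2a and Ctla2b, neighboring genes for inhibitors of cysteine proteases, are close copies whose reads could be shared, so their values are not independent. Ctla2a was at 2.46, 1.10 and 1.62 CPM in the CTRL libraries, 7.52, 6.68 and 7.20 CPM at 0.7 MAC and 9.09, 4.68 and 6.49 CPM at 2.0 MAC, with a change of 2.00 (SE 0.27, adjusted p = 0.000541), and Ctla2b changed by 3.34 (SE 0.55, adjusted p = 0.00293) from 0 to 0.315 CPM in the CTRL libraries. Without CTRL replicate 2 the change of Ctla2b was 4.19 (adjusted p = 0.00499), and with cortex and striatum genes as covariate it was 3.18 and not called (adjusted p = 0.452). Bcl6b, a transcriptional repressor, changed by 1.63 (SE 0.36, adjusted p = 0.0237), a call lost without CTRL replicate 2 or 3 or 2.0 MAC replicate 1 (adjusted p up to 0.097). B3gnt5, a glycosyltransferase of glycolipid synthesis, changed by 2.44 (SE 0.49, adjusted p = 0.0123), lost without CTRL replicate 1 or 3 (adjusted p up to 0.069). The uncharacterized 2010310C07Rik changed by 2.32 (SE 0.47, adjusted p = 0.0124), lost without CTRL replicate 2 or 3 (adjusted p up to 0.0757). Nes, nestin, an intermediate filament of progenitor cells and of some endothelium, was at 17.2, 13.9 and 18.9 CPM in the CTRL libraries, 31.2, 27.6 and 24.4 CPM at 0.7 MAC and 35.6, 45.7 and 36.04 CPM at 2.0 MAC, a change of 0.98 (SE 0.12, adjusted p = 0.000248).

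A ligand and its receptor moved in opposite directions. Tnfsf10, the death ligand TRAIL (chromosome 3, 27317028 to 27342427), was at 4.42, 4.72 and 5.61 CPM in the CTRL libraries, 1.25, 0.978 and 1.38 CPM at 0.7 MAC and 1.11, 1.13 and 0.690 CPM at 2.0 MAC, a log2 change of -2.18 (SE 0.24, adjusted p = 0.000107). Tnfrsf10b, its receptor in the mouse (chromosome 14, 69767472 to 69784403), was at 0.819, 0.157 and 1.03 CPM in the CTRL libraries, 2.65, 2.28 and 4.44 CPM at 0.7 MAC and 2.78, 1.94 and 2.90 CPM at 2.0 MAC, with a change of 2.03 (SE 0.42, adjusted p = 0.0147). The receptor's call was lost without CTRL replicate 1 or 2 (adjusted p up to 0.0607). The intron reads of both gave the same directions, -1.81 (adjusted p = 0.00555) for the ligand and 1.55 (adjusted p = 0.0245) for the receptor.

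Several endothelial surface genes fell while the early response genes rose. Of 20 endothelium markers, 2 rose (Cdh5 and Slc2a1) and 4 fell (Slco1a4, Abcb1a, Itm2a and Tie1). Slco1a4, an organic anion transporter of the blood-brain barrier (chromosome 6, 141805440 to 141856199), was at 75.5, 88.9 and 77.5 CPM in the CTRL libraries, 47.9, 50.1 and 53.5 CPM at 0.7 MAC and 55.8, 53.3 and 42.7 CPM at 2.0 MAC. No sevoflurane library reached the lowest CTRL library, as the rule for common genes asks, and the log2 fold change was -0.68 (SE 0.082, adjusted p = 0.000228). Abcb1a, the efflux pump P-glycoprotein, was at 48.98 ± 5.89 CPM in the CTRL group, 36.9 ± 3.004 CPM at 0.7 MAC and 38.4 ± 1.41 CPM at 2.0 MAC (n = 3 per group, SD), a change of -0.38 (SE 0.081, adjusted p = 0.0177), lost without CTRL replicate 2 or 3 or 0.7 MAC replicate 1 (adjusted p up to 0.128). Itm2a, a membrane protein of endothelium, changed by -0.47 (adjusted p = 0.0106), lost without CTRL replicate 1 or 3 (adjusted p up to 0.0904). Tie1, an endothelial receptor tyrosine kinase, changed by -0.60 (SE 0.12, adjusted p = 0.0129), lost without CTRL replicate 1 or 3 (adjusted p up to 0.1). Clec14a, an endothelial lectin, changed by -1.04 (SE 0.24, adjusted p = 0.0308), lost without CTRL replicate 1 or 3 or 2.0 MAC replicate 1 or 3 (adjusted p up to 0.143). Further common genes in this direction, chosen after their values were seen, were the thyroid hormone transporter Slco1c1 at -0.58 (adjusted p = 0.000359), the efflux pump Abcg2 at -0.32 (adjusted p = 0.0484), von Willebrand factor, Vwf, at -0.42 (adjusted p = 0.0152), the phosphatase Ptprb at -0.29 (adjusted p = 0.0484) and the receptor Calcrl at -0.52 (adjusted p = 0.0322). Of these, Slco1c1 kept its call whichever library was left out. Abcg2 lost it without CTRL replicate 1, 2 or 3 or 0.7 MAC replicate 1 or 2 or 2.0 MAC replicate 1, 2 or 3 (adjusted p up to 0.182), Vwf without CTRL replicate 2 or 3 (adjusted p up to 0.0824), Ptprb without CTRL replicate 1, 2 or 3 or 0.7 MAC replicate 1 or 2 or 2.0 MAC replicate 2 or 3 (adjusted p up to 0.165) and Calcrl without CTRL replicate 1, 2 or 3 or 0.7 MAC replicate 1 or 2.0 MAC replicate 1 or 2 (adjusted p up to 0.123). Cdh5, the cadherin of endothelial junctions, rose by 0.36 (adjusted p = 0.0347), lost without CTRL replicate 1, 2 or 3 or 0.7 MAC replicate 2 or 2.0 MAC replicate 1, 2 or 3 (adjusted p up to 0.121), and Slc2a1, the glucose transporter of the barrier, by 0.52 (adjusted p = 0.0285), lost without CTRL replicate 1 or 3 or 2.0 MAC replicate 1 (adjusted p up to 0.17). The summed level of the 20 endothelium markers was 590.2 to 628.8 CPM in the CTRL libraries, 511.2 to 595.2 CPM at 0.7 MAC and 584.2 to 632 CPM at 2.0 MAC, and its part in these results was not tested.

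Smooth muscle markers fell in part, 2 of 11 tested. Acta2, smooth muscle actin, was at 13.6, 14.2 and 12.8 CPM in the CTRL libraries, 5.99, 6.68 and 8.73 CPM at 0.7 MAC and 8.53, 10.7 and 11.05 CPM at 2.0 MAC, a change of -0.67 (SE 0.14, adjusted p = 0.0142), lost without CTRL replicate 1, 2 or 3 (adjusted p up to 0.0674). Tagln, which binds actin in the same cells, was at 7.21, 7.71 and 7.67 CPM in the CTRL libraries, 4.596, 4.24 and 5.21 CPM at 0.7 MAC and 3.90, 5.97 and 4.83 CPM at 2.0 MAC, a change of -0.65 (SE 0.16, adjusted p = 0.0439), lost without CTRL replicate 1, 2 or 3 or 0.7 MAC replicate 1 or 2 or 2.0 MAC replicate 1 or 3 (adjusted p up to 0.143). The summed level of the 11 pericyte and smooth muscle markers was 385.2 to 395.4 CPM in the CTRL libraries, 328.9 to 346.4 CPM at 0.7 MAC and 371.2 to 390.5 CPM at 2.0 MAC, and its part in these falls was not tested. Other common genes that rose, chosen here after their values were seen, were Myh9, the nonmuscle myosin heavy chain, at 0.54 (adjusted p = 0.000236), the adhesion protein vinculin, Vcl, at 0.47 (adjusted p = 0.00135), the tropomyosin Tpm4 at 0.71 (adjusted p = 0.00676), and the scaffold protein Akap12 at 0.81 (adjusted p = 1.17e-05). Only Tpm4 of these lost its call in a fit that left out 1 library, without CTRL replicate 3 (adjusted p = 0.0564).

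**Figure D3:**
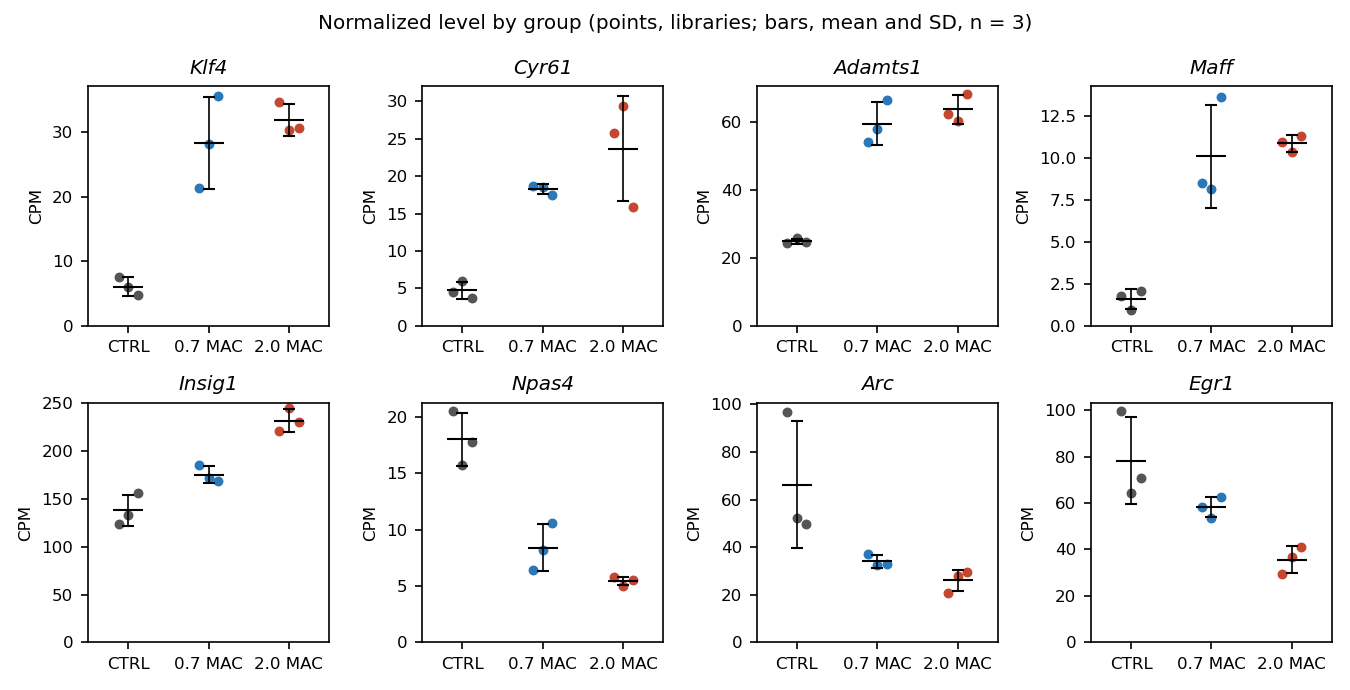
Level in CPM of 8 genes in each library, with the mean and SD of the 3 libraries of each group. Klf4, Cyr61, Adamts1 and Maff are more than 2-fold higher on average in both sevoflurane groups, Insig1 steps up from CTRL to 2.0 MAC, and Npas4, Arc and Egr1 are highest in CTRL.

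Of the Egr and Nr4a families, 3 of 7 tested genes fell and none rose, the Egr members Egr1, Egr2 and Egr4 (by DESeq2 also 3 and 0). At an unadjusted p under 0.05, 1 of the 7 was higher. Of the 3 that fell, 2 were common, Egr1 and Egr2. The list as a whole was lower only at 2.0 MAC, with medians of 0.30 at 0.7 MAC and -1.12 at 2.0 MAC. Its summed level was 142.6 to 230.5 CPM in the CTRL libraries, 178 to 210.8 CPM at 0.7 MAC and 87.55 to 116.1 CPM at 2.0 MAC. Between the doses, 5 of the 7 were called lower at 2.0 MAC, as were 8.73% of all genes. Egr2, a transcription factor of activated neurons and myelinating cells (chromosome 10, 67535475 to 67542188), was at 5.57, 4.88 and 3.84 CPM in the CTRL libraries, 1.53, 0.978 and 2.14 CPM at 0.7 MAC and 0.742, 1.45 and 1.24 CPM at 2.0 MAC. All sevoflurane libraries lay below all CTRL libraries, as the rule for common genes asks, and the log2 fold change was -1.80 (SE 0.26, adjusted p = 0.0011). Egr1, its relative (chromosome 18, 34859823 to 34864984), was at 99.8, 64.2 and 70.8 CPM in the CTRL libraries, 58.5, 53.6 and 62.5 CPM at 0.7 MAC and 29.3, 36.6 and 40.9 CPM at 2.0 MAC, with a change of -0.77 (SE 0.12, adjusted p = 0.00153). It fell further at 2.0 MAC, with -0.42 at 0.7 MAC (adjusted p = 0.13) and -1.12 at 2.0 MAC (adjusted p = 0.000118). Egr4 changed by -1.11 (SE 0.19, adjusted p = 0.00455), lost without CTRL replicate 1 (adjusted p = 0.0503). Nr4a1 and Nr4a2, nuclear receptors of the same response, were at 0.062 (adjusted p = 0.929) and 0.038 (adjusted p = 0.95) and did not pass.

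Npas4 and Arc, induced by neuronal firing, fell. Npas4, a transcription factor induced by calcium entry in neurons (chromosome 19, 4984355 to 4989971), was at 20.5, 15.7 and 17.7 CPM in the CTRL libraries, 6.41, 8.15 and 10.6 CPM at 0.7 MAC and 5.75, 5.003 and 5.52 CPM at 2.0 MAC. The log2 fold change was -1.41 (SE 0.15, adjusted p = 5.77e-05), and that of its intron reads -2.81 (adjusted p = 0.00286). Arc, a synaptic protein whose mRNA is carried to dendrites (chromosome 15, 74669083 to 74672570), was at 96.97, 52.1 and 49.7 CPM in the CTRL libraries, 37.3, 32.4 and 32.8 CPM at 0.7 MAC and 20.96, 27.8 and 29.5 CPM at 2.0 MAC. CTRL replicate 1 was the highest library, and the change was -1.14 (SE 0.17, adjusted p = 0.00123). In the same list of 21 neuronal activity genes 4 rose, the growth arrest genes Gadd45b at 0.73 (adjusted p = 0.0325) and Gadd45g at 0.82 (adjusted p = 0.0124), the kinase Sik1 at 0.62 (adjusted p = 0.000863) and the clock gene Per1 at 0.27 (adjusted p = 0.0415). Gadd45b lost its call without CTRL replicate 1, 2 or 3 or 0.7 MAC replicate 1 or 2.0 MAC replicate 2 or 3 (adjusted p up to 0.124), Gadd45g without CTRL replicate 1 (adjusted p = 0.0938) and Per1 without CTRL replicate 1, 2 or 3 or 0.7 MAC replicate 1 or 2.0 MAC replicate 1 or 3 (adjusted p up to 0.199). The list had 1 gene higher and 2 lower both without CTRL replicate 1 and without the 3 libraries highest in cerebellum genes. With cortex and striatum genes as covariate neither this list nor the Egr and Nr4a list had any gene called. Homer1 and Bdnf, at -0.32 (adjusted p = 0.0966) and -0.05 (adjusted p = 0.88), did not pass.

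The AP-1 family, which pairs Fos, Jun, Maf and Atf proteins, had 4 of 10 tested genes higher and none lower (2 lower at an unadjusted p under 0.05, 0 in DESeq2). On total gene reads 4 were higher and 1 lower. Maff, a small Maf protein without an activation domain (chromosome 15, 79347541 to 79359072), was at 1.80, 0.944 and 2.07 CPM in the CTRL libraries, 8.50, 8.15 and 13.6 CPM at 0.7 MAC and 10.9, 10.3 and 11.3 CPM at 2.0 MAC, a change of 2.69 (SE 0.26, adjusted p = 2.38e-05). Atf3, a stress-induced factor, was at 0.819, 0.944 and 0.443 CPM in the CTRL libraries, 1.95, 2.61 and 1.84 CPM at 0.7 MAC and 2.97, 2.74 and 3.73 CPM at 2.0 MAC, a change of 1.81 (SE 0.34, adjusted p = 0.00752), lost without CTRL replicate 3 (adjusted p = 0.0654). Fosl2 was at 44.6, 31.01 and 26.7 CPM in the CTRL libraries, 68.8, 67.3 and 73.1 CPM at 0.7 MAC and 37.7, 40.7 and 44.5 CPM at 2.0 MAC, so that the rise was mainly at 0.7 MAC, with a pooled change of 0.66 (SE 0.12, adjusted p = 0.00565) and 2.0 MAC minus 0.7 MAC at -0.76 (SE 0.13, adjusted p = 0.000639). Fosl2 overlapped the CTRL libraries and was not common, and its call was lost without CTRL replicate 3 (adjusted p = 0.0523). Jun rose by 0.48 (adjusted p = 0.0308), a call lost without CTRL replicate 1, 2 or 3 or 0.7 MAC replicate 1 or 2.0 MAC replicate 2 or 3 (adjusted p up to 0.172). Fos itself was at 23.3 ± 3.13 CPM in the CTRL group, 18.8 ± 3.22 CPM at 0.7 MAC and 15.9 ± 1.35 CPM at 2.0 MAC (n = 3 per group, SD), a change of -0.42 (SE 0.12, adjusted p = 0.0686) that did not pass. Without CTRL replicate 3 the list had 1 gene higher, and with the 6 sevoflurane libraries as 1 group it had 1. Of 15 feedback inhibitors of MAP kinase signaling, Dusp1 rose by 0.72 (adjusted p = 0.00747), Dusp16 rose by 0.31 (adjusted p = 0.0285), and Spry2 and Dusp14 fell, at -0.59 (adjusted p = 0.000734) and -0.71 (adjusted p = 0.018). The call of Dusp1 was lost without CTRL replicate 3 (adjusted p = 0.0611), that of Dusp14 without CTRL replicate 1 (adjusted p = 0.156) and that of Dusp16 without CTRL replicate 1, 2 or 3 or 0.7 MAC replicate 1 or 2.0 MAC replicate 2 or 3 (adjusted p up to 0.106).

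Of 28 tested glucocorticoid-induced genes, 12 rose and none fell (0 also at an unadjusted p under 0.05 and 0 in DESeq2), with a median log2 fold change of 0.36. Of these, 10 were common. Cdkn1a, the cyclin-dependent kinase inhibitor p21 (chromosome 17, 29090979 to 29100722), was at 10.3, 9.76 and 10.04 CPM in the CTRL libraries, 18.7, 20.5 and 23.1 CPM at 0.7 MAC and 24.7, 24.4 and 27.1 CPM at 2.0 MAC, a change of 1.19 (SE 0.11, adjusted p = 1.4e-05). Fkbp5, a chaperone of the glucocorticoid receptor, was at 34.2, 39.8 and 37.04 CPM in the CTRL libraries, 54.2, 50.9 and 55.8 CPM at 0.7 MAC and 57.1, 44.1 and 45.8 CPM at 2.0 MAC, a change of 0.47 (SE 0.087, adjusted p = 0.00752), lost without CTRL replicate 1 or 3 (adjusted p up to 0.0633). For both genes all 6 sevoflurane libraries lay above all CTRL libraries, as the rule for common genes asks. Sgk1, a kinase of salt and stress responses, was at 68.6, 159 and 131 CPM in the CTRL libraries, 172, 184 and 214 CPM at 0.7 MAC and 279, 210.3 and 199 CPM at 2.0 MAC, a change of 0.80 (SE 0.17, adjusted p = 0.0207), lost without CTRL replicate 3 or 2.0 MAC replicate 1 (adjusted p up to 0.0773). Arrdc2, an arrestin-domain protein, was at 9.83, 19.99 and 20.5 CPM in the CTRL libraries, 26.6, 28.04 and 32.5 CPM at 0.7 MAC and 48.4, 39.9 and 37.01 CPM at 2.0 MAC, a change of 1.04 (SE 0.16, adjusted p = 0.00194). Sgk1 and Arrdc2 were both lowest in CTRL replicate 1, as were Zbtb16, Map3k6 and Hif3a of the same list, at 0.63 (adjusted p = 0.0326), 1.35 (adjusted p = 0.0445) and 0.79 (adjusted p = 0.0484). Zbtb16 lost its call without CTRL replicate 1 or 3 or 0.7 MAC replicate 1 or 2.0 MAC replicate 1 (adjusted p up to 0.182), Map3k6 without CTRL replicate 1 or 2 or 0.7 MAC replicate 1 or 2 or 2.0 MAC replicate 1 or 3 (adjusted p up to 0.192) and Hif3a without CTRL replicate 1 or 3 or 0.7 MAC replicate 1 or 2 or 2.0 MAC replicate 1, 2 or 3 (adjusted p up to 0.19). Tsc22d3, the leucine zipper protein GILZ, changed by 0.50 (SE 0.084, adjusted p = 0.00347) and Arrdc3 by 0.44 (SE 0.069, adjusted p = 0.00161), while Nfkbia, the inhibitor of NF-kB, changed by 0.57 (SE 0.10, adjusted p = 0.00564) and was lost without CTRL replicate 1 (adjusted p = 0.0538). The count of 12 fell to 5 without CTRL replicate 1, to 6 without CTRL replicate 3 and to 6 without 2.0 MAC replicate 1. It was 8 in DESeq2 and 8 with a replicate block, and 1 both with cortex and striatum genes as covariate and with the 6 sevoflurane libraries as 1 group.

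In the list of FoxO targets and fasting genes, 7 of 29 rose and 1 fell. Klf4, Cdkn1a, Klf2 and Arrdc3 of these stand in other lists too. Klf6 and Klf15, further Krüppel-like factors, changed by 0.48 (SE 0.071, adjusted p = 0.00118) and 0.47 (SE 0.088, adjusted p = 0.00752), the second lost without CTRL replicate 1 (adjusted p = 0.0674). Sesn1, a sestrin that restrains mTOR, rose by 0.33 (adjusted p = 0.0447), lost without CTRL replicate 1, 2 or 3 or 0.7 MAC replicate 2 or 2.0 MAC replicate 1, 2 or 3 (adjusted p up to 0.199). Trib2, a pseudokinase, was the gene that fell, at -0.36 (adjusted p = 0.0178), lost without CTRL replicate 1 or 2 (adjusted p up to 0.124).

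Some genes of cholesterol synthesis rose, with larger values at 2.0 MAC. Of 26 tested genes of cholesterol and fatty acid synthesis, 10 rose and 1 fell, with medians of 0.049 at 0.7 MAC and 0.28 at 2.0 MAC. Their summed level was 6027 to 6235 CPM in the CTRL libraries, 5635 to 6072 CPM at 0.7 MAC and 6842 to 7409 CPM at 2.0 MAC. The sum of the list thus lay above the CTRL libraries only at 2.0 MAC. Between the doses, 13 of the 26 were higher at 2.0 MAC, where 845 (5.98%) of all genes were higher and 1235 (8.73%) lower at 2.0 MAC. Insig1, the sterol sensor of the endoplasmic reticulum (chromosome 5, 28071363 to 28078662), was at 124, 133 and 156 CPM in the CTRL libraries, 185, 172 and 169 CPM at 0.7 MAC and 221, 244 and 229 CPM at 2.0 MAC. The groups did not overlap, and the change was 0.55 (SE 0.065, adjusted p = 0.000217). Msmo1, a sterol oxidase, was at 97.8, 87.2 and 95.5 CPM in the CTRL libraries, 125, 112 and 124 CPM at 0.7 MAC and 129.8, 126 and 123 CPM at 2.0 MAC, a change of 0.40 (SE 0.057, adjusted p = 0.000863). Mvd, a decarboxylase of the mevalonate pathway, was at 6.55, 6.61 and 8.71 CPM in the CTRL libraries, 11.4, 11.9 and 11.5 CPM at 0.7 MAC and 13.2, 16.3 and 14.4 CPM at 2.0 MAC, a change of 0.83 (SE 0.14, adjusted p = 0.00303). Idi1, which makes isoprenoid precursors, was at 62.1, 68.9 and 61.99 CPM in the CTRL libraries, 78.3, 71.9 and 70.3 CPM at 0.7 MAC and 89.96, 100.1 and 96.9 CPM at 2.0 MAC, a change of 0.38 (SE 0.064, adjusted p = 0.00323). For these 4 genes every sevoflurane library lay above every CTRL library, as the rule for common genes asks. Fdft1, squalene synthase, rose by 0.32 (adjusted p = 0.0166), and Lss, lanosterol synthase, by 0.36 (adjusted p = 0.033). The call of Fdft1 was lost without CTRL replicate 1, 2 or 3 (adjusted p up to 0.0934) and that of Lss without CTRL replicate 1, 2 or 3 or 0.7 MAC replicate 1 or 2.0 MAC replicate 2 or 3 (adjusted p up to 0.111). Srebf1, a regulator of fatty acid synthesis, was the gene that fell, at -0.24 (adjusted p = 0.0348), lost without CTRL replicate 2 or 3 or 0.7 MAC replicate 1 or 2 or 2.0 MAC replicate 1, 2 or 3 (adjusted p up to 0.16). The 10 genes higher became 5 without CTRL replicate 3 and 6 without the 3 libraries highest in cerebellum genes. They became 2 with the 6 sevoflurane libraries as 1 group and none with cortex and striatum genes as covariate. Oligodendrocyte markers, which belong to cells rich in this pathway, summed to 10320 to 11850 CPM in the CTRL libraries, 8582 to 9850 CPM at 0.7 MAC and 11210 to 13440 CPM at 2.0 MAC, and their part in the difference between the doses was not tested.

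**Figure D4:**
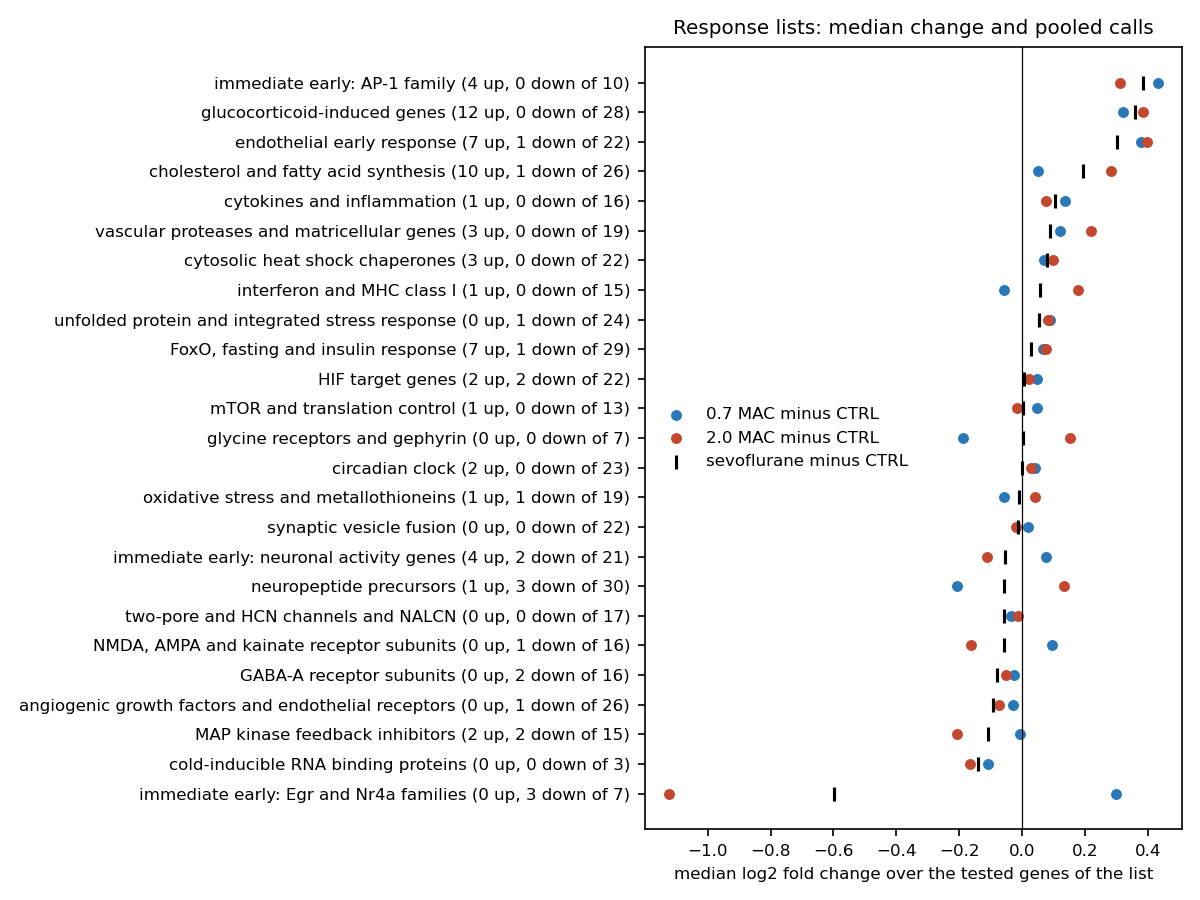
Median log2 fold change of the tested genes of each of 25 response lists, for each dose and pooled, with the number of genes called higher and lower in brackets. The AP-1, glucocorticoid, endothelial and cholesterol lists have the highest pooled medians, and the Egr and Nr4a list the lowest, where the 0.7 MAC median lies on the other side of 0.

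Genes of immune cells and of signaling were among the remaining large decreases. Ido1, an enzyme that degrades tryptophan, was at 2.62, 1.73 and 1.62 CPM in the CTRL libraries, 0.836, 0.978 and 1.23 CPM at 0.7 MAC and 0.371, 0 and 0 CPM at 2.0 MAC, a change of -2.47 (SE 0.48, adjusted p = 0.0102). It was 0 in 2 of the 2.0 MAC libraries, and its call was lost without CTRL replicate 1 (adjusted p = 0.0813). Without 2.0 MAC replicate 1, the only library of that dose with reads, its change was -3.83 (adjusted p = 0.00567), and without the 3 libraries highest in cerebellum genes it was -2.03 and not called (adjusted p = 0.136). Zfp366, a zinc finger protein known from dendritic cells (chromosome 13, 99184823 to 99247037), was at 5.90, 4.56 and 5.76 CPM in the CTRL libraries, 1.39, 0.815 and 1.07 CPM at 0.7 MAC and 2.41, 1.13 and 1.66 CPM at 2.0 MAC, with a change of -1.96 (SE 0.25, adjusted p = 0.000292). Erbb3, a receptor for neuregulins found in glia (chromosome 10, 128567523 to 128589652), was at 42.3, 39.8 and 35.9 CPM in the CTRL libraries, 22.3, 17.4 and 19.8 CPM at 0.7 MAC and 21.9, 20.01 and 20.4 CPM at 2.0 MAC. The values were tight within groups, and the log2 fold change was -0.95 (SE 0.087, adjusted p = 1.5e-05), with -1.67 (adjusted p = 0.000262) on intron reads. Grap, an adaptor of tyrosine kinase signaling, changed by -1.40 (SE 0.26, adjusted p = 0.00743), lost without CTRL replicate 3 (adjusted p = 0.0775). Clec2d, a lectin-like ligand of natural killer receptors, changed by -1.16 (SE 0.22, adjusted p = 0.0089), lost without CTRL replicate 2 (adjusted p = 0.0579). Cd180, a Toll-like receptor homolog of immune cells, and Nmbr, the receptor of neuromedin B, changed by -1.32 (adjusted p = 0.0391) and -1.05 (adjusted p = 0.0435). Cd180 lost its call without CTRL replicate 1 or 3 or 0.7 MAC replicate 2 or 2.0 MAC replicate 1, 2 or 3 (adjusted p up to 0.263) and Nmbr without CTRL replicate 1 or 3 or 0.7 MAC replicate 1 or 2 or 2.0 MAC replicate 1, 2 or 3 (adjusted p up to 0.273). No microglia marker of 16 tested was called (0 in edgeR and 0 in limma, with 2 lower at an unadjusted p under 0.05). Their summed level was 335.6 to 366.8 CPM in the CTRL libraries, 309 to 350.5 CPM at 0.7 MAC and 302.3 to 318.9 CPM at 2.0 MAC, and its part in these falls was not tested.

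Of 22 cytosolic heat shock genes 3 rose (1.09% of all genes rose), Bag3 at 0.61 (adjusted p = 0.0229), Hspa1b at 1.10 (adjusted p = 0.0399) and Dnajb4 at 0.24 (adjusted p = 0.0394), lost without CTRL replicate 1 or 3 or 0.7 MAC replicate 1 or 2.0 MAC replicate 2 or 3 (adjusted p up to 0.136), CTRL replicate 1, 2 or 3 or 0.7 MAC replicate 1 or 2 or 2.0 MAC replicate 1, 2 or 3 (adjusted p up to 0.147) and CTRL replicate 1, 2 or 3 or 0.7 MAC replicate 1 or 2.0 MAC replicate 1, 2 or 3 (adjusted p up to 0.182) in that order. Hspa1b has a near-identical copy whose reads could be shared. Of 22 targets of the hypoxia-inducible factor, P4ha2 and Slc2a1 rose while P4ha1 and Ankrd37 fell. Ankrd37, an ankyrin repeat protein induced in hypoxia, was at 3.11, 2.36 and 2.80 CPM in the CTRL libraries, 0.279, 1.63 and 1.07 CPM at 0.7 MAC and 0.742, 0.323 and 1.10 CPM at 2.0 MAC, a change of -1.68 (SE 0.38, adjusted p = 0.0262), lost without CTRL replicate 1 or 3 or 2.0 MAC replicate 1 or 2 (adjusted p up to 0.131). P4ha1, a prolyl hydroxylase of collagen, fell, at -0.40 (adjusted p = 0.0131), lost without CTRL replicate 1 (adjusted p = 0.113), and P4ha2, its isoenzyme, rose by 0.47 (adjusted p = 0.0326), lost without CTRL replicate 1, 2 or 3 or 0.7 MAC replicate 1 or 2.0 MAC replicate 1 or 3 (adjusted p up to 0.136). None of the 3 cold-inducible RNA binding genes was called (0 in edgeR, DESeq2 and limma, and 0 at an unadjusted p under 0.05), with Cirbp at -0.14 (adjusted p = 0.556) and Rbm3 at -0.19 (adjusted p = 0.327). Of 24 genes of the unfolded protein and integrated stress response, only Slc7a11, the cystine transporter, was called, at -0.32 (adjusted p = 0.0257), lost without CTRL replicate 1 or 3 or 2.0 MAC replicate 1 (adjusted p up to 0.182). Further lists are read against the 1.09% of all genes that rose and the 1.78% that fell. Of 23 circadian clock genes 2 rose, and of 19 for oxidative stress and metallothioneins 1 rose and 1 fell. Of 15 interferon and MHC class I genes 1 rose, as did 1 of 13 for mTOR and translation control. Of 16 cytokine and inflammation genes 1 rose, and of 26 angiogenic growth factors and endothelial receptors 1 fell. Genes of these lists that rose included the clock repressor Bhlhe41 at 0.23 (adjusted p = 0.0308) and the metal-binding Mt2 at 0.39 (adjusted p = 0.0414). The antigen-presenting H2-D1 rose by 0.36 (adjusted p = 0.0183) and the kinase Mknk2 by 0.32 (adjusted p = 0.0366). Bhlhe41 lost its call without CTRL replicate 1 or 2 or 0.7 MAC replicate 1 or 2.0 MAC replicate 1 or 3 (adjusted p up to 0.189), Mt2 without CTRL replicate 1, 2 or 3 or 0.7 MAC replicate 1 or 2 or 2.0 MAC replicate 1 or 3 (adjusted p up to 0.227), H2-D1 without CTRL replicate 2 or 3 (adjusted p up to 0.0927) and Mknk2 without CTRL replicate 1, 2 or 3 or 0.7 MAC replicate 1 or 2 or 2.0 MAC replicate 2 or 3 (adjusted p up to 0.141).

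For the known targets of volatile anesthetics, calls are read against the 1.09% of all genes that rose and the 1.78% that fell. Of 16 GABA-A receptor subunits 2 fell, Gabrg3 at -0.33 (adjusted p = 0.0257) and Gabra4 at -0.39 (adjusted p = 0.0358), the first lost without CTRL replicate 1, 2 or 3 or 2.0 MAC replicate 2 or 3 (adjusted p up to 0.111) and the second without CTRL replicate 1, 2 or 3 or 0.7 MAC replicate 1 or 2.0 MAC replicate 2 or 3 (adjusted p up to 0.209). Gabra6, a subunit of cerebellar granule cells, was at 0.491, 1.57 and 1.62 CPM in the CTRL libraries, 27.4, 68.6 and 0.460 CPM at 0.7 MAC and 5.75, 3.87 and 35.5 CPM at 2.0 MAC, a change of 4.15 (SE 1.17, adjusted p = 0.0701) that did not pass. Its highest libraries were the 3 highest in cerebellum genes, a list that includes Gabra6 itself. Gabra6 was called higher in 5 of the 24 alternatives, and DESeq2 called 1 of the 16 subunits higher. In the pooled comparison no gene was called among 7 for glycine receptors and gephyrin (0 at an unadjusted p under 0.05), 17 for tandem-pore, HCN and NALCN channels (1 higher and 3 lower unadjusted) and 22 for vesicle fusion (5 lower unadjusted), with 0 calls in DESeq2 and limma as well. Of the 24 alternatives, Syt1 was called in 4, Cplx2 and Kcnk2 in 3, Kcnk13 in 2, Kcnk10 and Vamp2 in 1, and Unc13b and Unc79 in 0. On total gene reads 1 gene each of the channel and vesicle fusion lists was called lower. The largest of these lists holds Snap25, the membrane fusion protein, at 1608 ± 42.5 CPM in the CTRL group, 1653 ± 47.7 CPM at 0.7 MAC and 1648 ± 8.63 CPM at 2.0 MAC (n = 3 per group, SD). Among 16 glutamate receptor subunits Grik5 fell, at -0.27 (adjusted p = 0.0451), with -0.054 at 0.7 MAC (adjusted p = 0.806) and -0.48 at 2.0 MAC (adjusted p = 0.00101), lost without CTRL replicate 1 or 3 or 0.7 MAC replicate 1 or 2 or 2.0 MAC replicate 1, 2 or 3 (adjusted p up to 0.244). The pooled contrast averages the doses. At 2.0 against 0.7 MAC, 5 of the 7 glycine receptor and gephyrin genes were higher and 0 lower. Higher and lower counts were 4 and 8 for vesicle fusion, 1 and 8 for glutamate receptors, 2 and 4 for GABA-A and 2 and 2 for channels. Over all genes 5.98% were called higher and 8.73% lower. The glycine medians against CTRL were -0.19 at 0.7 MAC and 0.15 at 2.0 MAC. The part of regional markers in this was not tested.

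Neuropeptide precursors did not share a direction, with 1 of 30 higher and 3 lower. Penk, the enkephalin precursor, was at 194, 168 and 193 CPM in the CTRL libraries, 125, 155 and 185 CPM at 0.7 MAC and 95.7, 73.1 and 85.5 CPM at 2.0 MAC, a change of -0.70 (SE 0.097, adjusted p = 0.000739), and Pdyn and Tac1 fell, at -0.59 (adjusted p = 0.00752) (lost without CTRL replicate 1 or 3 (adjusted p up to 0.0698)) and -0.47 (adjusted p = 0.0347) (lost without CTRL replicate 1, 2 or 3 or 0.7 MAC replicate 1 or 2 or 2.0 MAC replicate 2 or 3 (adjusted p up to 0.15)). All 3 overlapped the CTRL libraries, all are also made in the striatum, and each was lower at 2.0 MAC than at 0.7 MAC, with a difference of -0.87 (SE 0.12, adjusted p = 0.000113) for Penk. Oxt, oxytocin, rose by 0.65 (adjusted p = 0.0486), mainly at 2.0 MAC, and its call was lost without CTRL replicate 1 or 3 or 0.7 MAC replicate 1, 2 or 3 or 2.0 MAC replicate 1, 2 or 3 (adjusted p up to 0.236). Hcrt, the orexin precursor, was at 5.41, 6.93 and 6.05 CPM in the CTRL libraries, 5.43, 3.75 and 2.76 CPM at 0.7 MAC and 10.2, 9.85 and 6.35 CPM at 2.0 MAC. Its pooled change was -0.053 (SE 0.21, adjusted p = 0.945), a value made of -0.61 at 0.7 MAC and 0.50 at 2.0 MAC, and the 2.0 MAC libraries lay above the 0.7 MAC libraries, with a difference of 1.11 (SE 0.25, adjusted p = 0.0056). Hypothalamus markers, a list that includes Hcrt, also differed, with medians of -0.21 at 0.7 MAC and 0.49 at 2.0 MAC. Of these, 7 of 14 were called higher at 2.0 MAC than at 0.7 MAC, Hcrt among them, so this count is not independent of Hcrt. The part of the other markers in the difference of Hcrt was not tested. Gapdh, a common reference gene, was at 122 ± 8.90 CPM in the CTRL group, 118 ± 5.25 CPM at 0.7 MAC and 126 ± 7.36 CPM at 2.0 MAC (n = 3 per group, SD), with a pooled change of 0.0016 (SE 0.058, adjusted p = 0.996).

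The genes called in the pooled test with opposite signs at the doses were led by Lmo7, Akap5 and Bcl11b. Bcl11b, a transcription factor of cortical and striatal projection neurons, was at 164, 122 and 148 CPM in the CTRL libraries, 134, 133 and 185 CPM at 0.7 MAC and 57.9, 51.0 and 55.8 CPM at 2.0 MAC. Only the 2.0 MAC libraries lay apart, with 0.062 at 0.7 MAC (adjusted p = 0.858) and -1.40 at 2.0 MAC (adjusted p = 6.54e-06). Akap5, a postsynaptic anchor of kinases, and Lmo7, a LIM domain protein, changed by 0.083 at 0.7 MAC (adjusted p = 0.74) and -1.15 at 2.0 MAC (adjusted p = 5.87e-06) and by 0.07 at 0.7 MAC (adjusted p = 0.835) and -1.44 at 2.0 MAC (adjusted p = 6.27e-06). None of them is a common gene, and all 3 were lowest in the 2.0 MAC libraries, as the striatum and cortex markers were. Bcl11b is itself in the list of cortex and hippocampus markers.

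The test between the doses called 5.98% of all genes higher and 8.73% lower at 2.0 MAC, and was also read for the common genes. Their rule asks for the same direction at both doses, so these counts are not independent of it. Of the 129 higher, 15 passed the test of 2.0 MAC minus 0.7 MAC, and 14 of these had the larger rise at 2.0 MAC. Of the 84 lower, 9 passed and 6 had the larger fall at 2.0 MAC. The rest had no call, which does not show that the doses act alike. Klf4, for instance, had a dose difference of 0.17 (SE 0.15, adjusted p = 0.519), and Erbb3 of 0.059 (SE 0.11, adjusted p = 0.795). The largest called differences were those of Ido1 at -3.03 (SE 0.80, adjusted p = 0.0168), Egr1 at -0.70 (SE 0.15, adjusted p = 0.00372), Syndig1l, a synaptic gene of the striatum list, at -0.57 (SE 0.12, adjusted p = 0.00336), Arrdc2 at 0.52 (SE 0.17, adjusted p = 0.047) and Nes at 0.49 (SE 0.12, adjusted p = 0.0117). Syndig1l was at 50.8, 47.9 and 53.4 CPM in the CTRL libraries, 29.4, 36.5 and 41.2 CPM at 0.7 MAC and 26.9, 22.1 and 23.1 CPM at 2.0 MAC, and was the only striatum marker among the common genes, with a pooled change of -0.80 (SE 0.094, adjusted p = 0.000201).

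Intron reads, which come largely from unspliced RNA and were not used by the rule, gave a second reading of the same libraries. Fitted by themselves over 16142 genes, 492 (3.05%) were higher and 708 (4.39%) lower. Of the common genes higher, 117 could be tested, and 52 were called higher and none lower. Their direction was the same in 109. Of the common genes lower, 78 could be tested, 42 were called lower and none higher, and 74 had the same direction. The medians were 0.55 on exon-based and 0.49 on intron reads for the higher genes, and -0.43 and -0.49 for the lower. Epha2 had 2.34 (adjusted p = 0.00112) on intron reads and Plaur 2.96 (adjusted p = 0.000243), while Apold1 had 0.48 (adjusted p = 0.635) and Sgk1 -0.24 (adjusted p = 0.08). Intron and exon reads of a library share its tissue and depth and are not independent samples.

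**Figure D5:**
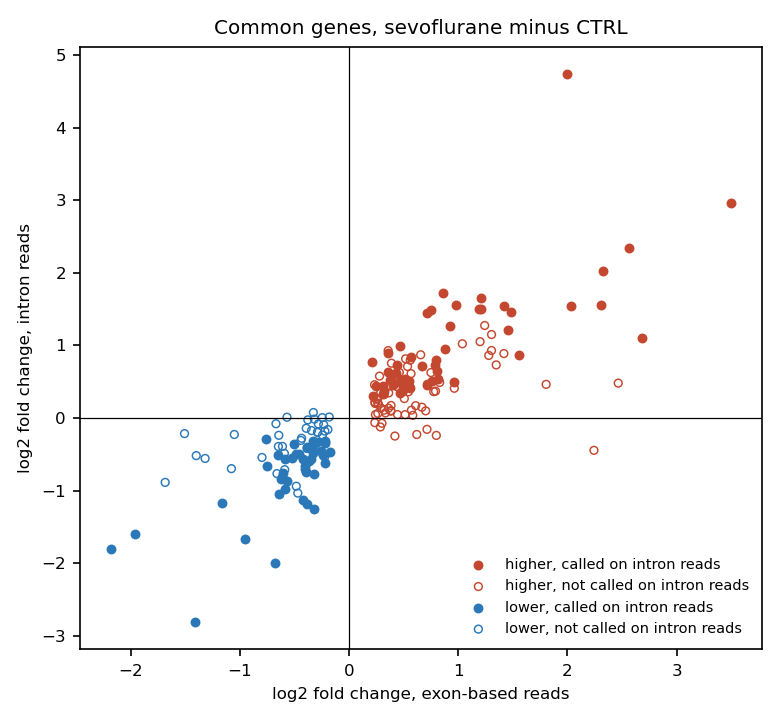
Log2 fold change of sevoflurane minus CTRL on exon-based reads (horizontal) and on intron reads (vertical), for the 195 common genes tested on both, 117 higher and 78 lower. Filled points were called on intron reads in the same direction, 52 of the higher and 42 of the lower genes.

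A few of the extreme genes carry limits of their own. Gh, growth hormone, had 0 reads in the 3 CTRL libraries, 47, 38 and 13 reads at 0.7 MAC and 3, 42 and 1 reads at 2.0 MAC. Against a floor of 3 reads over the CTRL group, its mean of 3.70 CPM was at least 23.7-fold higher, and the adjusted p of 0.0447 was lost without CTRL replicate 1, 2 or 3 or 0.7 MAC replicate 1 or 2 or 2.0 MAC replicate 2 (adjusted p up to 0.152). Of 9 pituitary markers 2 passed the filter, Gh and Pomc, which was at 0.92 (adjusted p = 0.136). Other pituitary hormone genes were near 0, with Prl at 0 to 8 reads, Cga at 0 to 3 and Tshb at 0 to 1 per library. The mitochondrial gene mt-Co2 fell on exon-based reads, at 10.6, 8.03 and 8.41 CPM in the CTRL libraries, 3.06, 1.96 and 4.75 CPM at 0.7 MAC and 4.08, 3.39 and 1.93 CPM at 2.0 MAC and a change of -1.51 (SE 0.23, adjusted p = 0.00153), but these are 12 to 65 reads a library, against 20075 to 26010 total gene reads. On total gene reads the change was 0.091 and had the other sign (adjusted p = 0.447). For mt-Nd3 the numbers were 21 to 150 exon-based reads and 1730 to 3063 total gene reads, with a change of 2.24 (SE 0.26, adjusted p = 0.000174) on exon-based and 0.45 (adjusted p = 0.0285) on total gene reads. Its call was lost in limma on log2(RPKM + 0.1), at 0.51 (adjusted p = 0.073). It was also lost in limma on log2(RPKM + 1) and with cortex and striatum genes as covariate (adjusted p up to 0.253 over the 3 settings). How the authors' program assigned reads of overlapping or near-identical genes to these was not tested.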

How the data were processed

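RNA was sequenced from rRNA-depleted, strand-specific libraries. Mapping to GRCm38/mm10 and counting per gene were done by the authors in CLC Genomics Workbench, with an annotation release that the sources used here do not give. The deposited counts are whole numbers of exon-based, total gene, unique gene and intron reads. The deposited RPKM values, reads per exon length and library size by the authors, served only as an alternative. Deposited annotation columns in other units (exon length, start and end) described the genes. Of 198 columns of per-sample values 150 were not used, and columns of the authors' own fold changes and p-values were left out. The table holds 49585 genes.

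Counts were tested with edgeR 4.0.16 in R 4.3.3, with a quasi-likelihood fit of all 9 libraries after a filter at a minimum count of 10 and TMM scaling. The pooled contrast gave each dose the same weight. P-values were adjusted by the Benjamini-Hochberg method over 14140 genes, or 16142 for intron reads. The fit was tested on simulated data. Depth was 5321491 to 7178568 exon-based reads and 14458778 to 20032516 total gene reads per library, which limits precision for genes of a few reads, and read-based floors cover counting error only. Alternatives, 23 planned and 1 added, included DESeq2 1.42.0 and limma 3.58.1.

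Genes named were the 15 highest and the 15 lowest common genes at 1 CPM or more, up to 4 per list by adjusted p, 5 by dose difference, 3 with opposite signs, Gapdh and Hcrt, and list members that define a cell type. Other genes named were chosen after their values were seen. Some genes that the rule would name are not reported here. Members and lists were chosen with earlier results of these data known. Samples carry replicate numbers, but residuals of libraries with the same number correlated at -0.211 to -6.85e-05, so the numbers were not taken as pairs. No pair of libraries was a copy (chi-square over its degrees of freedom, 1.55 to 4.92 within groups). Promoters came from RefSeq on GRCm38.p6. Gene coordinates are those of the deposited table.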

Additional observations from a re-analysis of the deposited data

Results flagged for a closer look

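Of the common genes named by the rule, 9 differed between the doses by the test of 2.0 MAC minus 0.7 MAC in edgeR. The difference in log2 fold change, with 3 libraries per dose, was 0.52 (SE 0.17, adjusted p = 0.047) for Arrdc2, 0.49 (SE 0.12, adjusted p = 0.0117) for Nes and 0.40 (SE 0.073, adjusted p = 0.00119) for Insig1. It was 0.26 (SE 0.076, adjusted p = 0.0311) for Arrdc3, 0.36 (SE 0.11, adjusted p = 0.0337) for Mt2 and 0.38 (SE 0.071, adjusted p = 0.00159) for Idi1, so all 6 rose further at 2.0 MAC. The difference was -0.70 (SE 0.15, adjusted p = 0.00372) for Egr1, -0.57 (SE 0.12, adjusted p = 0.00336) for Syndig1l and -3.03 (SE 0.80, adjusted p = 0.0168) for Ido1, which fell further at 2.0 MAC. Striatum markers were also lowest at 2.0 MAC, and their part in these differences was not tested.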

How the results depend on the processing

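The main counts were 154 genes higher and 252 lower, 35 and 30 at 2-fold or more, and 129 and 84 common. Leaving out each library in turn gave 64 to 370 higher, 70 to 541 lower, 23 to 71 and 13 to 43 at 2-fold or more, and 63 to 282 and 35 to 276 common. No filter on low counts gave 453 and 572, 88 and 52 at 2-fold or more, and 195 common higher. A minimum count of 30 gave 23 higher at 2-fold or more, and a likelihood ratio test gave 281 and 401, with 69 higher at 2-fold or more. A test against a fold of 1.2 gave 35 and 45, with 35 and 18 common. With the 6 sevoflurane libraries as 1 group, 36 and 18 were called, 19 and 7 at 2-fold or more, and all were common. Total gene reads gave 404 and 628, 72 higher at 2-fold or more, and 359 and 356 common. Unique gene reads gave 476 and 750, 83 and 46, and 394 and 384 common. In limma on log2(RPKM + 0.1) 79 were lower, 15 at 2-fold or more and 38 common. In limma on log2(RPKM + 1) 75 were lower, 41 of them common, with 6 higher and 0 lower at 2-fold or more (unadjusted, p under 0.05 held for 1317 rises and 771 falls), a scale that shrinks the folds of low genes. The covariate of cortex and striatum genes gave 18 and 3, 16 and 1, and 17 and 3. Without the 3 libraries highest in cerebellum genes, chosen after seeing the data, 74 and 97 were called, with 15 lower at 2-fold or more and 71 and 38 common. DESeq2 gave 125 and 214 and shared 159 of the 213 common genes. Except where construction shows it, the cause of these shifts was not tested.

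The replicate block gave 93 and 157 genes and 52 common lower. The numbers share no stated batch, and no correlation between libraries of the same number was above 0.

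mt-Co2 had the other sign on total gene reads (0.091) and in limma at both pseudocounts (0.11 and 0.11). The cause was not tested. Depth limits genes of a few reads per library, such as Gh, Ido1 and Plaur.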
